A study of Mus musculus with 4 samples.

Results

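The nuclear genes of oxidative phosphorylation were examined for chromatin contact of Ruvbl2 in mouse haematopoietic stem cells (HSC) and leukaemia stem cells (LSC). The members were chosen by symbol: 76 of the 21887 protein-coding genes on chromosomes 1 to 19, X and Y in the RefSeq gene table carry the symbol of a subunit of complexes I to V. Complex I had 36 members, complex II 4, complex III 8, complex IV 11 and complex V 17, with Ndufa4 placed in complex IV, where its protein is known to sit, although its name marks it as a complex I subunit. The rule used symbols and no measured value, although earlier results of these data were known when the members were chosen. Assembly factors, tissue-specific isoforms and a few subunits with other symbols, Ndufab1 among them, fell outside the rule and were counted apart.

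The HSC were bone marrow cells sorted as CD48-CD150+LSK from Nup214fl/+ mice. The LSC were sorted as Lin-Sca-1- cells positive for c-Kit, CD16/32 and CD34, from Nup214fl/+ mice whose leukaemia was driven by the MLL-AF9 fusion. Both groups therefore carried 1 floxed allele of the nucleoporin gene Nup214, and the LSC gate is also the gate of normal granulocyte-monocyte progenitors, so maturation stage and leukaemia cannot be told apart in the comparison. Each group had 2 libraries, made per the labels from 2000 to 5000 cells with 17 to 20 PCR cycles. The labels do not say whether the 2 libraries of a group came from separate animals, name haematopoietic stem cell as the cell type of all 4 libraries, and list no library without the Ruvbl2 antibody among the samples analysed here, so how far a peak depends on Ruvbl2 was not tested.

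Complexes I to IV of the inner mitochondrial membrane pass electrons from NADH and succinate to oxygen, and complexes I, III and IV pump protons that drive ATP synthesis by complex V. Most subunits are encoded in the nucleus, by short housekeeping genes on nearly every chromosome, whose promoters often hold CpG islands and sites for NRF1, the ETS factor GABP and YY1. Quiescent HSC are known for a low reliance on this pathway, whereas myeloid leukaemia stem cells have been described as dependent on it. Ruvbl2 is an AAA+ ATPase that works in chromatin remodelling and histone exchange, as a subunit of INO80, SRCAP and TIP60, and in the assembly of protein complexes through R2TP. In CUT&Tag an antibody tethers a transposase to chromatin, and the cut fragments pile up where the antibody is bound. A peak is a measure of occupancy near a gene and not of its expression.

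The library lists were of unequal length, so each member was described by its best peak, the peak with the largest −log10 p that overlapped the gene body or the 1000 bp on either side, and by that peak's rank in its own library. A gene was called listed where such a peak stood among the 20000 strongest of the library. The deposited lists of HSC replicates 1 and 2 held 161655 and 286107 peaks, and those of LSC replicates 1 and 2 held 216077 and 210541. Values below are given in that order of libraries. The lists hold no read totals, so sequencing depth is unknown, and the authors' fold enrichment is the peak's own value against the background of its library. The replicate numbers also stood apart: replicate 1 of both groups had 1468 and 2015 peaks on chromosome Y where replicate 2 had 16 and 26, the peak names shared 1 scheme in replicate 1 and another in replicate 2, and listed peaks had a median width of 484 and 371 bp against 714 and 634 bp. With 2 libraries against 2 there are 3 splits into pairs, and the smallest two-sided exact permutation p is 0.333, so that test could not reach significance, and no test between the cell types was run. Listed peaks lay at 3, 4, 3 and 4 of 10 stem cell genes and at 5, 7, 5 and 6 of 10 granulocyte-monocyte genes, beside 30.2%, 41.2%, 32.3% and 41.2% of all protein-coding genes. The stem cell genes were thus at the level of all genes. Of 5 B cell genes 2, 1, 3 and 2 were listed, and of 5 T cell genes 1, 1, 3 and 2. Of 5 erythroid genes 0, 2, 1 and 0 were listed, and of 5 megakaryocyte genes 1, 2, 1 and 4. Shares above that of all genes were thus not confined to the granulocyte-monocyte list. These counts do not check the sorted identities, since peaks are not expression.

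Of the 64 members with an annotated start, 3 complex I genes had a listed peak at the start in all 4 libraries, and their start-proximal sequences are shown for that reason. Each is the 250 bases before the annotated start, from RefSeq on the build GRCm38.p6 (positions as in mm10). Ndufa11, which encodes an accessory subunit of the membrane arm, is shown for chr17:56717512-56717761 on the plus strand. Ndufb5, also of the membrane arm, is shown for chr3:32736813-32737062 on the plus strand. Ndufs8, which encodes a subunit with iron-sulfur clusters on the path to ubiquinone, is shown for chr19:3912775-3913024 on the minus strand. Capitals mark exact matches, on either strand, to GCATGCG (NRF1 core), CCGGAAG (ETS core), ATGGCGG (YY1 core) or CCAAT.
Ndufa11: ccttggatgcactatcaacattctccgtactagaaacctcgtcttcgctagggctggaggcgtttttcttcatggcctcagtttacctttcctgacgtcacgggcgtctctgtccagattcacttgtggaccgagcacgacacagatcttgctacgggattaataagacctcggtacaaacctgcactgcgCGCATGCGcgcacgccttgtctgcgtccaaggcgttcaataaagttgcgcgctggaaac
Ndufb5: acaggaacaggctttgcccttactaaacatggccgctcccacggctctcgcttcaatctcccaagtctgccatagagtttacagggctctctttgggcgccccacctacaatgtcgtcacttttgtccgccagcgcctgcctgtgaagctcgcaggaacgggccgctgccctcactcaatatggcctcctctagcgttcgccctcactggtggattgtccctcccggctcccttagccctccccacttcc
Ndufs8: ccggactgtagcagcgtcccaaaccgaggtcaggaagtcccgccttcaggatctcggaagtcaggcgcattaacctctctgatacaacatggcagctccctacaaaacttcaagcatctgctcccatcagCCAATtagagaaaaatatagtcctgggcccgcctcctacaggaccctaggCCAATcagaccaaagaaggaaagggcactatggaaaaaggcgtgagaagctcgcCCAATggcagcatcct
The capitals in Ndufa11 are 2 overlapping NRF1 cores on opposite strands, which begin 59 and 58 bases before the start. Those in Ndufs8 are 3 CCAAT boxes that begin 120, 70 and 16 bases before the start. Ndufb5 has no match in the stretch shown and a YY1 core 19 bases past the start, and Ndufs8 has an ETS core 15 bases past it.

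At Ndufa11 the best peak ranked 1652, 161, 438 and 80 in the 4 libraries, with folds of 53.3, 69.4, 113 and 130. Its rank was the best of all members in HSC replicate 2 and in LSC replicate 2. The summit lay 622, 442, 484 and 442 bp upstream of the start, outside the stretch shown, and the peak covered 0, 250, 187 and 250 of the 250 bases, so the NRF1 cores lay outside it in replicate 1 of both cell types and inside it in replicate 2 of both. The start of Vmac was within 1000 bp of this summit in every library, and the peak cannot be assigned to either gene.

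For Ndufb5 the ranks were 3247, 852, 4350 and 1719 and the folds 46.2, 34.8, 62.6 and 40.4. The summit fell 38, 231, 236 and 38 bp upstream of the start, inside the stretch shown in all 4 libraries. Here the neighbour was Mrpl47, a gene for a protein of the mitochondrial ribosome, whose start was within 1000 bp of each summit. Ndufs8 ranked 4405, 539, 1056 and 701, with folds of 42.6, 41.5, 93.5 and 56.5 and summits 271, 266, 241 and 130 bp upstream of the start. Its peaks covered 75, 250, 182 and 250 of the 250 bases shown, and Aldh3b1 was within 1000 bp of each peak. At these 3 genes the ranks of HSC and LSC libraries overlapped. That both cell types had a listed peak at these starts was fixed by the choice of the genes.

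Across the pathway, a peak of any strength lay at 59, 71, 62 and 69 of the 76 members (77.6%, 93.4%, 81.6% and 90.8%), beside 73.0%, 85.0%, 79.4% and 82.4% of all protein-coding genes. Every member had a peak in at least 1 library, and of all protein-coding genes 5.67% had none in any library. Listed members numbered 23, 45, 21 and 47 (30.3%, 59.2%, 27.6% and 61.8%), beside 30.2%, 41.2%, 32.3% and 41.2% of all genes. In replicate 1 of both cell types the members thus stood at the level of all genes, and in replicate 2 of both they stood above it. The members are short, with a median gene length of 7228 bp against 17169 bp over all genes, so their windows were smaller. Between the cell types the count was level: the mean number of listed members was 34 in HSC and 34 in LSC, with LSC 2 fewer at replicate 1 and 2 more at replicate 2, far less than the gap between replicates.

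**Figure D1:**
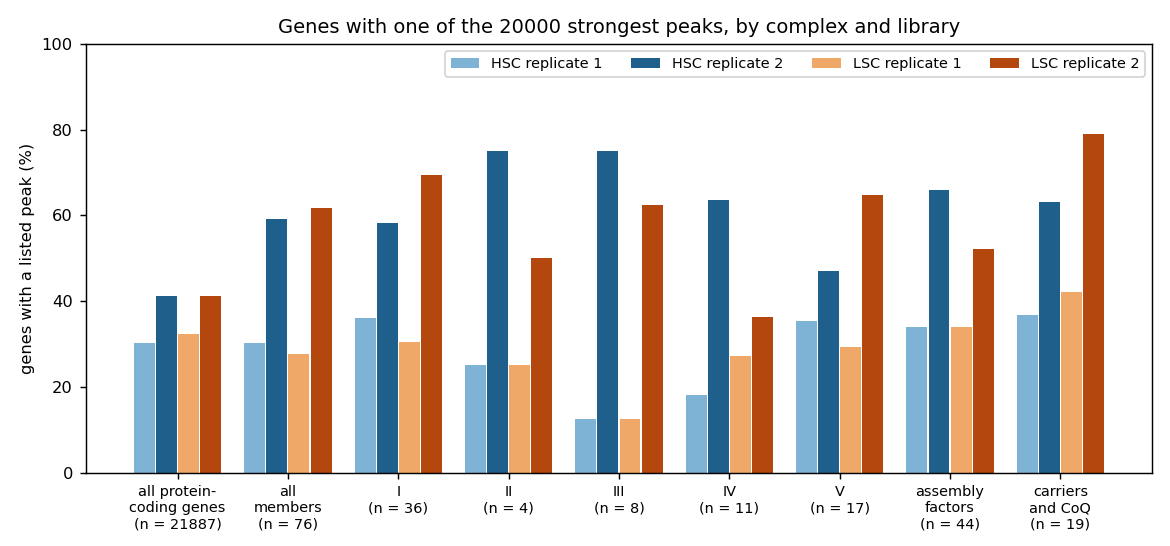
Share of genes with a peak among the 20000 strongest of each library (%, y axis) for all protein-coding genes, all members, complexes I to V, assembly factors, and carriers with coenzyme Q genes. Bars are single libraries, HSC in blue and LSC in orange, replicate 1 light and replicate 2 dark. Over all members the replicate 2 bars stand at 59.2% and 61.8% and the replicate 1 bars at 30.3% and 27.6%.

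The gap between replicates held for lists of other lengths. With the 5000 strongest peaks of each library, 34.2% of members in HSC replicate 2 and 39.5% in LSC replicate 2 were listed, beside 19.1% and 19.2% of all genes. With 40000 peaks the shares were 72.4% and 75% beside 54.2% and 54.9%. In replicate 1 the members' shares with 5000 peaks were 13.2% and 14.5%, beside 11.6% and 12.3% of all genes, and with 40000 peaks 42.1% in both, beside 42.9% and 45.4%.

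Of the 76 members, 9 were listed in all 4 libraries (11.8%, beside 11.3% of all genes) and 12 in 3 of the 4 (15.8%, beside 14.3%). A further 11 were listed in both replicate 2 libraries and in no other (14.5%, beside 7.30%), and 0 in both replicate 1 libraries alone (beside 1.93%). In no library was a listed peak found at 13 members (17.1%, beside 35.6%). Members listed in both LSC and in no HSC library numbered 7 (9.21%, beside 2.35%), and the reverse 2 (2.63%, beside 2.09%). The plot of best-peak ranks gives 75 of the members.

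**Figure D2:**
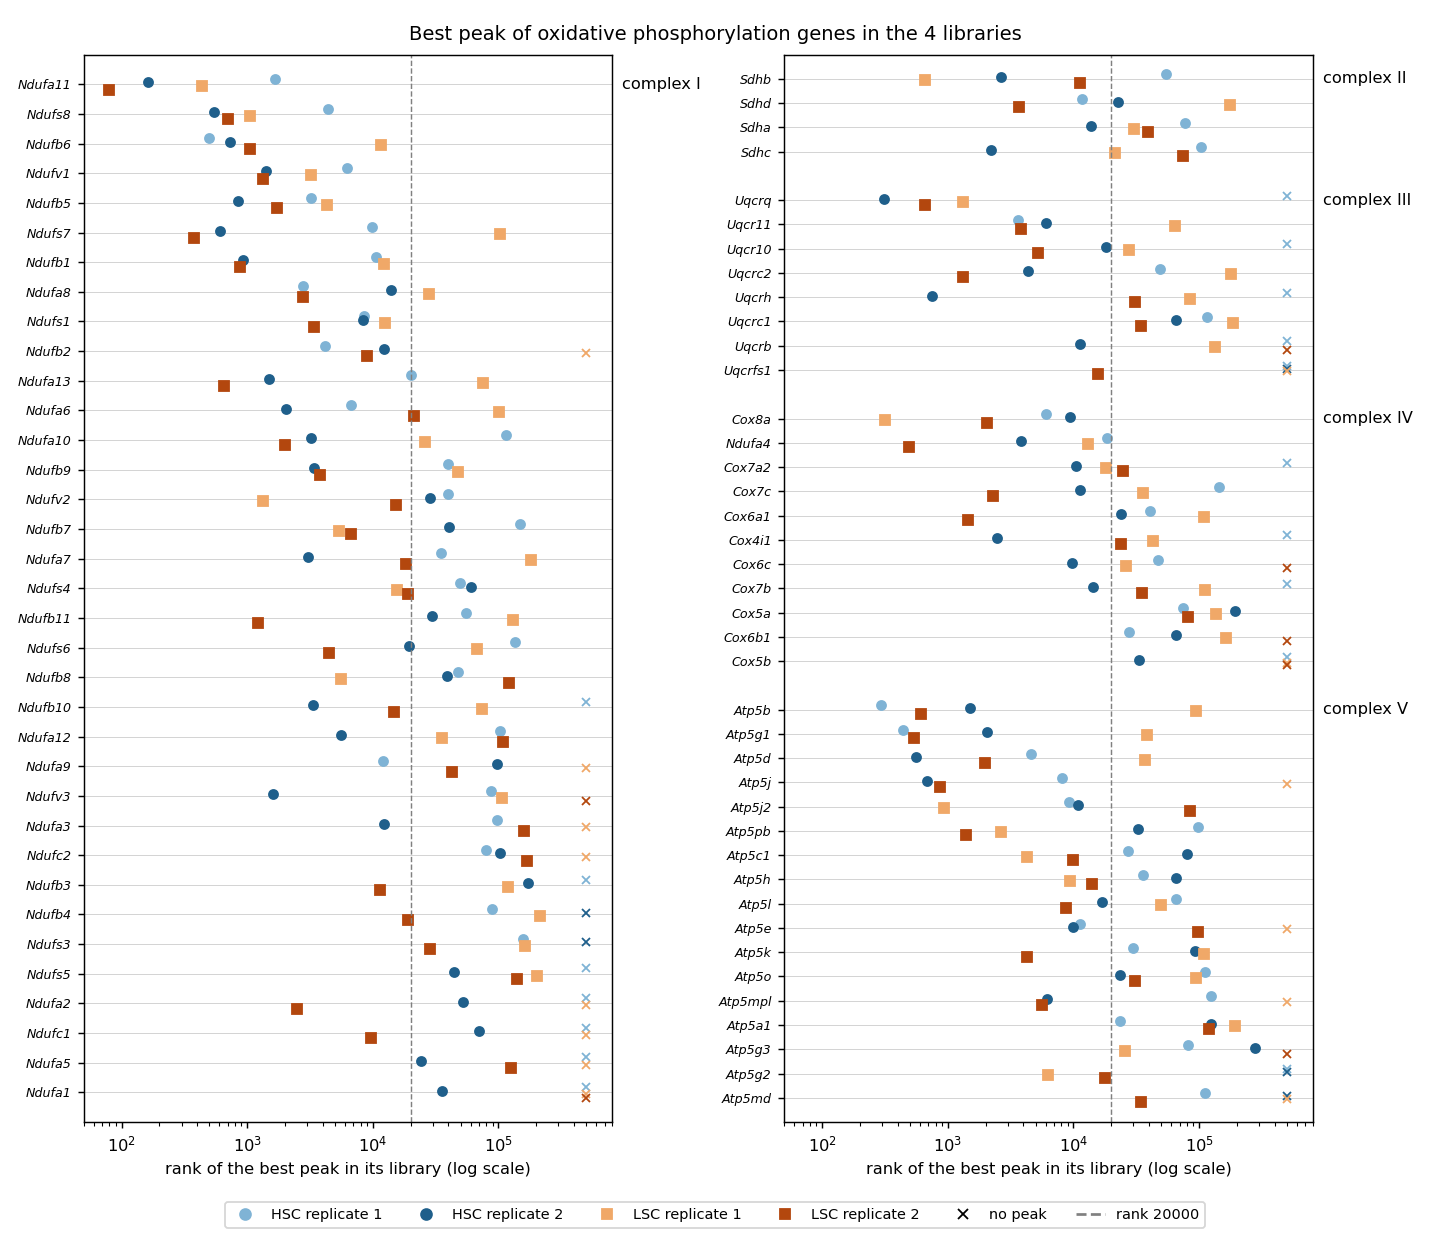
Rank of the best peak of 75 of the 76 members (x axis, log scale, rank 1 strongest) in the 4 libraries, with members in rows by complex. HSC are blue circles and LSC orange squares, replicate 1 light and replicate 2 dark, crosses at the right edge mark libraries with no peak, and the dashed line is rank 20000. The 9 members with all 4 symbols left of the line are 7 of complex I (Ndufa11, Ndufs8, Ndufb6, Ndufv1, Ndufb5, Ndufb1, Ndufs1) and Cox8a and Ndufa4 of complex IV.

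Complex I, the NADH dehydrogenase, held 36 of the 76 members and 7 of the 9 listed everywhere. These 7 were 19.4% of its genes, beside 11.3% of all protein-coding genes, and the counts are small. Its listed genes numbered 13, 21, 11 and 25 of 36. These were 36.1%, 58.3%, 30.6% and 69.4%, beside 30.2%, 41.2%, 32.3% and 41.2% of all genes. Its best ranks were 492, 161, 438 and 80. Beside the 3 genes above, those listed everywhere were Ndufv1, Ndufs1, Ndufb1 and Ndufb6. Ndufv1 encodes the flavin-bearing subunit that takes electrons from NADH. Its best peak (gene at chr19:4007499-4012755) ranked 6233, 1408, 3198 and 1345. In HSC replicate 1 that peak lay in the gene body, with its summit 3922 bp downstream of the start, and in the other 3 libraries within 218 bp of the start, so the 4 libraries did not mark 1 site. Ndufs1, which encodes the large iron-sulfur subunit of the NADH-oxidising arm, ranked 8504, 8373, 12535 and 3394, at a single site on the edge of the gene (chr1:63176302-63177054 in HSC replicate 1) shared with Eef1b2.

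Ndufb1 and Ndufb6 encode accessory subunits of the membrane arm. Ndufb1 (chr12:101968096-101975738) ranked 10581, 922, 12234 and 880, with the summit 3958 bp into the gene in HSC replicate 1 and 204 to 247 bp upstream of the start in the others, where it is shared with the start of Cpsf2. The ranks of Ndufb6 (chr4:40270591-40279421) were 492, 730, 11678 and 1046. In both HSC libraries and LSC replicate 2 its best peak lay just past the 3′ end, at the starts of Smim27 and Topors, and in LSC replicate 1 it lay in the gene body. The Ndufb6 start itself carried a listed peak in LSC replicate 2 alone, at rank 3675. Its listing in the HSC libraries thus rested on peaks at neighbouring genes. With the gene body alone, without flanks, Ndufb6 was listed in both LSC libraries and in no HSC library.

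Other complex I genes were strong in some libraries alone. Ndufs7, which encodes the subunit with the last iron-sulfur cluster before ubiquinone, ranked 9804, 612, 103729 and 376, so its LSC replicates lay far apart. Ndufa13 ranked 20257, 1484, 75139 and 656, the HSC replicate 1 rank falling just outside the list, and outside LSC replicate 1 its summit was within 1000 bp of the start of Tssk6. Among the 5 with no listed peak were Ndufs3, a core subunit, with ranks from 28290 to 161664 in the 3 libraries with a peak, and Ndufa1, which had 1 peak, in HSC replicate 2 at rank 35541.

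Complex II, succinate dehydrogenase, had a peak at all 4 genes in all 4 libraries (100%, beside 61.2% of all genes). Its genes have a median length of 19706 bp against 7228 bp over all members, so their windows were wider. Listed were 1, 3, 1 and 2 of the 4. These were 25%, 75%, 25% and 50%, beside 30.2%, 41.2%, 32.3% and 41.2% of all genes. Sdhb, for the iron-sulfur subunit, ranked 54830, 2634, 660 and 11275, and was listed in the last 3. Its summit was 172 bp past the start in HSC replicate 1 and 152 bp past it in HSC replicate 2, but 3333 bp and 15878 bp into the gene in the LSC libraries. Sdha, for the flavin subunit, was listed in HSC replicate 2 alone, at rank 13833, and its other ranks were 77535, 30440 and 39183. Of the membrane anchors, Sdhc ranked 102998, 2201, 21551 and 74573, and Sdhd ranked 11779, 22750, 175873 and 3700. Between replicates of 1 cell type the order changed, and no complex II gene separated HSC from LSC.

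Complex III, the cytochrome bc1 complex, showed the widest gap in share between replicates, with 1, 6, 1 and 5 of 8 genes listed. These were 12.5%, 75%, 12.5% and 62.5%, beside 30.2%, 41.2%, 32.3% and 41.2% of all genes. In HSC replicate 1 only 3 of the 8 had any peak (37.5%, beside 73.0% of all genes). Uqcrq, for a small membrane subunit, had no peak in HSC replicate 1 and ranks of 313, 1332 and 654 in the other libraries, a contrast within the HSC group. Its peak (chr11:53430432-53431254 in LSC replicate 1) lay at the edge of the gene, and Gdf9 was within 1000 bp. Uqcr11 ranked 3608, 6069, 64593 and 3790, and was the only member of the complex listed in HSC replicate 1.
Of the core subunits, Uqcrc1 ranked 116329, 65370, 186747 and 34200 and was listed in no library, and Uqcrc2 ranked 48504, 4334, 181070 and 1314 and was listed in replicate 2 of both groups. Uqcrfs1, which encodes the Rieske iron-sulfur protein, had a peak in LSC replicate 2 alone, at rank 15719. Uqcrh, for the hinge subunit next to cytochrome c1, had no peak in HSC replicate 1 and ranked 743, 85405 and 30991 in the others. The start of Lrrc41 was within 1000 bp of each of these summits.

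Complex IV, cytochrome c oxidase, had 2, 7, 3 and 4 of 11 genes listed. These were 18.2%, 63.6%, 27.3% and 36.4%, beside 30.2%, 41.2%, 32.3% and 41.2% of all genes. Any peak lay at 7, 11, 10 and 8 of the 11. These were 63.6%, 100%, 90.9% and 72.7%, beside 73.0%, 85.0%, 79.4% and 82.4% of all genes. Cox8a (chr19:7215158-7217616), for a small membrane subunit, ranked 6099, 9368, 314 and 2046. Its best-ranked peak, in LSC replicate 1 with a fold of 124, lay at the 3′ end of the gene, 2130 bp downstream of the start, whereas the other 3 summits lay within 270 bp of the start. Ndufa4 (chr6:11900372-11907450) ranked 18596, 3817, 12965 and 492, again at the start in 3 libraries, shared with Phf14, and near the 3′ end in LSC replicate 1. Its HSC replicate 1 rank was close to the limit of the list. Cox6a1, for another small membrane subunit, ranked 40385, 23923, 108895 and 1446, and was listed in LSC replicate 2 alone. Cox4i1, for the largest nuclear subunit, was listed in HSC replicate 2 alone, at rank 2441, and had no peak in HSC replicate 1. Cox5a, Cox5b and Cox6b1 were listed in no library, and Cox5b had a single peak, at its start in HSC replicate 2, at rank 33506.

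Complex V, ATP synthase, had 6, 8, 5 and 11 of 17 genes listed and 0 in all 4 libraries (beside 11.3% of all genes). The listed shares were 35.3%, 47.1%, 29.4% and 64.7%, beside 30.2%, 41.2%, 32.3% and 41.2% of all genes. Of the F1 head, Atp5b, for the catalytic beta subunit, ranked 291, 1491, 94630 and 616. In the 3 listed libraries that peak lay beyond the 3′ end of the gene beside Baz2a (chr10:128091008-128091612 in HSC replicate 1). At its own start Atp5b had listed peaks in both HSC libraries, at ranks 5894 and 3408, and no peak in either LSC library. Atp5a1, for the alpha subunit, had peaks in all 4 libraries and a listed one in none, with ranks of 23425, 125001, 193578 and 120696. Atp5d, for the delta subunit, ranked 4581, 553, 37108 and 1983. In HSC replicate 2 the summit lay within 1000 bp of the start of Midn. In replicate 1 of both groups it lay near the 3′ end, with Midn within 1000 bp of the peak. At its own start Atp5d ranked 41021, 1519, 187166 and 1983, so it was listed there in replicate 2 of both groups alone.
The proton-carrying c ring is encoded by the paralogous genes Atp5g1, Atp5g2 and Atp5g3, and these differed. Atp5g1 ranked 437, 2066, 38526 and 539, with every summit 110 to 437 bp upstream of the start. Atp5g2 (chr15:102662868-102671047) had a peak in the LSC libraries alone, at ranks 6244 and 17726. Atp5g3 was listed nowhere, with ranks of 81192, 279933 and 25757 and no peak in LSC replicate 2. Of the stalk and membrane subunits, Atp5l ranked 65572, 16895, 50172 and 8723, listed in replicate 2 of both groups. Atp5j, which shares its start region with the GABP subunit gene Gabpa, ranked 8070, 683 and 869 and had no peak in LSC replicate 1.

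The 7 genes listed in both LSC and in no HSC library were Atp5c1, Atp5g2, Atp5h and Atp5pb of complex V and Ndufb7, Ndufs4 and Ndufv2 of complex I. Atp5c1, for the rotating gamma subunit, ranked 4290 and 9946 in the LSC libraries and 27215 and 80099 in the HSC libraries. Atp5pb, for the stator b subunit, ranked 2659 and 1393 against 98775 and 32651. Atp5h, for the stator d subunit, ranked 9407 and 13975 against 35958 and 66023. For these 3 genes, as for the other 4, the ranks of the groups did not overlap, which the choice of the genes fixes.
Ndufb7, for an accessory subunit on the intermembrane side, ranked 5343 and 6744 in LSC against 147967 and 40040 in HSC. Ndufv2, for an iron-sulfur subunit of the NADH-oxidising arm, ranked 1328 and 15243 against 39808 and 28369. Ndufs4, an accessory subunit whose gene is lost in mouse models of Leigh syndrome, ranked 15493 and 19071 against 49439 and 60250, and its window was the longest of the 7.

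The LSC libraries mostly marked these genes at different places. The listed peaks of both LSC libraries merged into 1 site at Ndufv2 alone (1 of 7, beside 18.4% of all genes with this pattern), where the summits lay 28 and 232 bp upstream of the start at ranks 2525 and 15243. At Atp5g2 the summits were 144 and 5300 bp past the start. At Atp5pb they were 16816 bp past it, beyond the 3′ end, and 237 bp upstream of it, the latter at the start of Wdr77. HSC libraries had weaker peaks at 6 of the 7 genes, Atp5g2 being the exception. The count depended on the length of the list: it was 3 with the 10000 or 40000 strongest peaks and 1, Atp5g2, with every deposited peak (1.32%, beside 1.41% of all genes).

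Atp5e and Ndufa6 were listed in both HSC and in no LSC library. Atp5e, for the epsilon subunit of the F1 head, ranked 11294 and 9895 in HSC, had no peak in LSC replicate 1, and ranked 97677 in LSC replicate 2. Ndufa6, for an accessory subunit of complex I, ranked 6650 and 2038 in HSC against 100523 and 21169 in LSC, so that LSC replicate 2 was just outside the list. In contrast to the LSC genes, the listed HSC peaks formed 1 site at each gene (2 of 2, beside 22.1% of all genes with this pattern), at the start: the summits lay 130 bp past and 33 bp before the start of Atp5e, and 50 and 36 bp before that of Ndufa6. In HSC replicate 1 the Atp5e peak was chr2:174463519-174464086 and the Ndufa6 peak chr15:82353915-82354358. LSC replicate 2 had its weaker Ndufa6 peak 37 bp past the same start. Prelid3b was within 1000 bp of the listed Atp5e peaks.

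**Figure D3:**
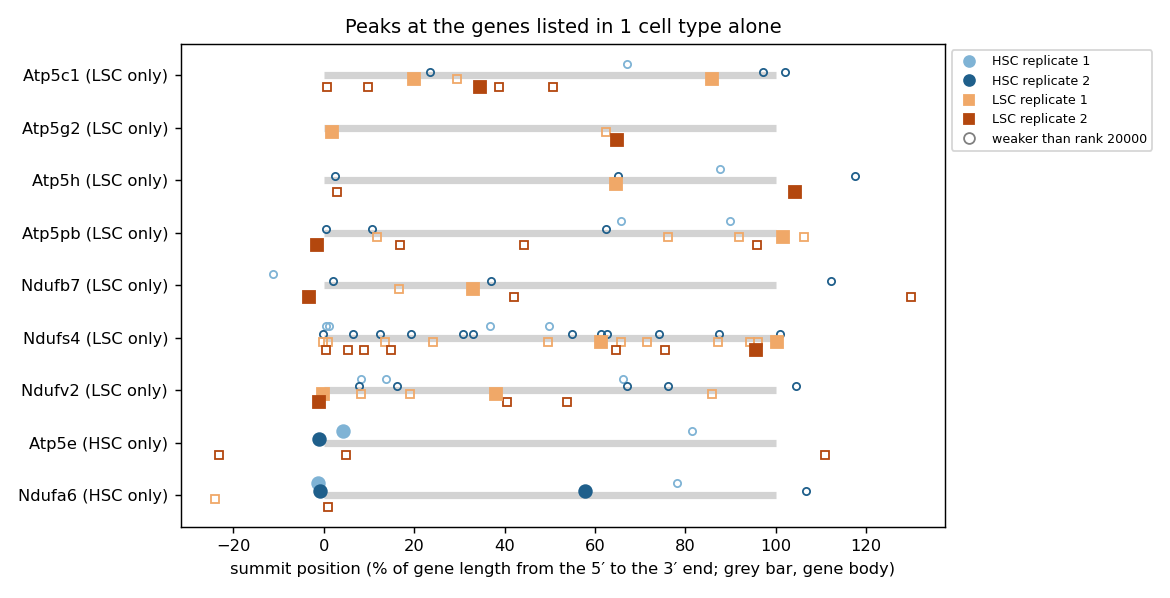
Summits of all peaks at the 7 members listed in LSC alone and the 2 listed in HSC alone, as a percentage of the gene's length from its 5′ to its 3′ end (x axis, grey bar the gene body). HSC are blue circles and LSC orange squares, replicate 1 light and replicate 2 dark, and open symbols are peaks weaker than rank 20000. The filled symbols of both HSC libraries meet at the start of Atp5e and Ndufa6, and those of both LSC libraries meet at the start of Ndufv2.

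Except in LSC replicate 1, most listed best peaks of the members lay at start sites. Starts and strand were known for 64 members and 17492 genes in all. A listed summit within 1000 bp of a start was found at 15, 32, 8 and 34 of the 64 (23.4%, 50%, 12.5% and 53.1%), beside 8.28%, 22.5%, 8.91% and 23.1% of all genes. The members were thus above all genes in each of the 4 libraries, LSC replicate 1 by the least. Of the members' listed best peaks, 14 of 21, 28 of 35, 7 of 19 and 33 of 40 were at the start (66.7%, 80%, 36.8% and 82.5%), beside 23.6%, 47.7%, 23.0% and 48.6% over all genes with a start. The start window made up a median of 21.3% of the window of a member and 10.6% of that of all genes, and the part of gene length in these shares was not tested. The median summit of these peaks was 55.5, 16.5, 205 and 130 bp upstream of the start, beside 82, 67, 93 and 59 bp over all genes.

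**Figure D4:**
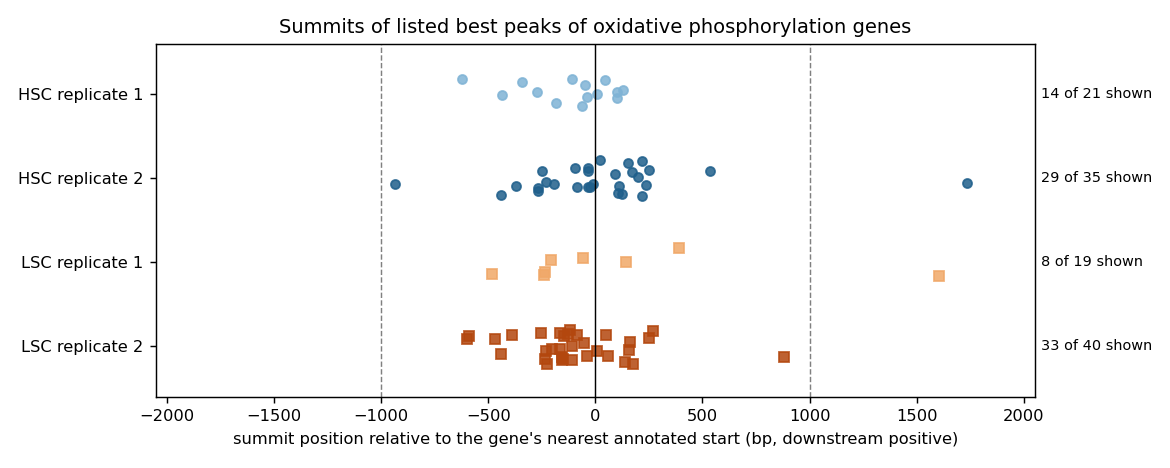
Position of the summit of each listed best peak relative to the nearest annotated start of its gene (bp, x axis, downstream positive), 1 symbol per member, by library; vertical scatter within a row has no meaning. Dashed lines mark 1000 bp on either side, and the counts at the right give how many of the listed best peaks with a known start are within the plotted range. Most symbols in HSC replicate 2 and LSC replicate 2 lie close to the start.

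By pattern at starts, 3 members were listed in all 4 libraries (4.69%, beside 2.50% of all genes), the 3 shown above. In 3 of 4 libraries 9 were listed (14.1%, beside 5.17%), and in both replicate 2 libraries alone 9 (14.1%, beside 7.51%). The genes listed at the start in HSC alone were Atp5b, Atp5e, Atp5j2 and Ndufa6 (6.25%, beside 0.732%), 3 of them of complex V, and the gene listed there in LSC alone was Ndufv2 (1.56%, beside 0.749%). For Atp5j2, which encodes the f subunit of the membrane part, the start ranks were 9161 and 10950 in HSC, no peak in LSC replicate 1 and 94019 in LSC replicate 2. Over the whole gene Atp5j2 was listed in 3 of 4 libraries, since its best LSC replicate 1 peak, 4317 bp past the start, ranked 937. A further 17 members had no listed peak at the start in any library (26.6%, beside 65.5%). Members listed in 1 cell type alone were 7 in LSC against 2 in HSC over whole genes and 1 against 4 at starts, which gives no direction between the cell types. LSC replicate 1 had a listed peak at the start of 8 members where LSC replicate 2 had 34.

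Many listed best peaks of the members lay near a second gene. The 63 members with a listed peak had 136 listed best peaks over the 4 libraries, of which 69 lay within 1000 bp of another protein-coding gene and 44 within 1000 bp of another gene's start. Another gene was thus within 1000 bp of a listed best peak at 35 of the 63 members. At these a peak may belong to either gene. The same counts were not made over all protein-coding genes, so they do not set the members apart from other genes. Among the neighbours were Mrpl47, Mrpl36 and Rps28, genes for ribosomal proteins of mitochondria or cytosol, Timm8b, for a mitochondrial import chaperone, at Sdhd, and Gabpa.

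The members' starts were rich in CpG. Counting a 300-base window (250 before to 50 after the start) as CpG-rich where GC was above 50% and the observed to expected CpG ratio above 0.6, 50 of 64 members were CpG-rich (78.1%), beside 48.1% of all genes. Among CpG-rich genes, a listed peak lay at the start of 26%, 44%, 14% and 54% of the 50 members, beside 12.4%, 37.0%, 13.8% and 37.6% of all. Within this class the members and all genes were thus closer than over all starts, and level in LSC replicate 1. At the 14 members without a CpG-rich window the counts were 2, 10, 1 and 7, or 14.3%, 71.4%, 7.14% and 50%, beside 4.43%, 9.04%, 4.37% and 9.70% of all such genes. Ndufs8 was the member of this class listed in all 4 libraries. Those listed in both replicate 2 libraries alone were Uqcr10, Cox7c, Ndufb2 and Atp5l.

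**Figure D5:**
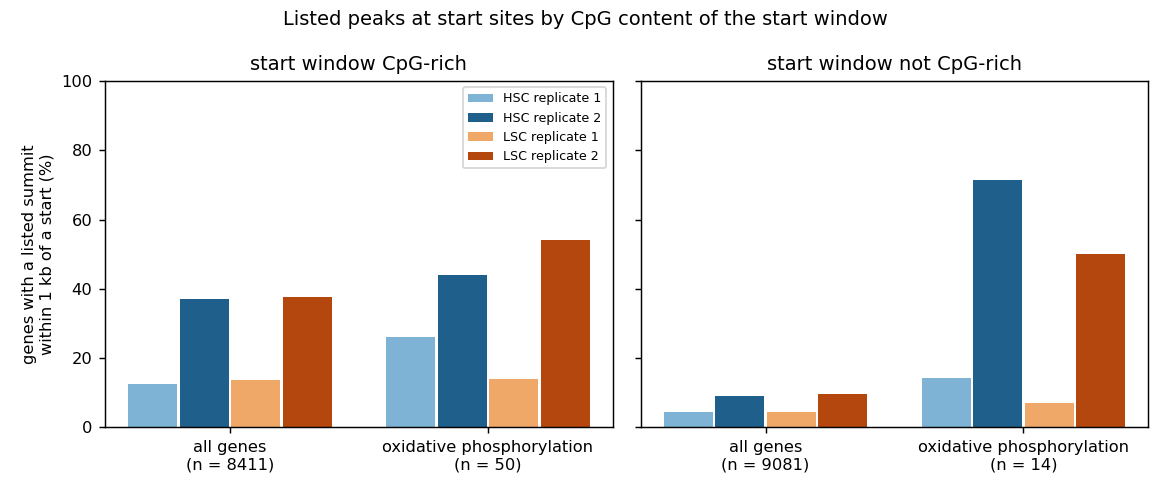
Share of genes with a listed summit within 1000 bp of a start (%, y axis), for genes whose start window is CpG-rich (left) and not (right), in all genes and in oxidative phosphorylation genes. Bars are single libraries in the colours of the other plots. On the right the members' replicate 2 bars are 71.4% and 50% of 14 genes, and those of all genes 9.04% and 9.70%.

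The NRF1, ETS and YY1 cores were more frequent in promoter windows of members than in all windows, as a description of letters and not of binding. The 69 windows of the 64 members were searched on both strands, beside 21263 windows of all genes. Each of these cores holds a CpG, and members' starts were more often CpG-rich. The comparison was not made within CpG-rich windows, so the part of CpG content was not tested. GCATGCG, the NRF1 core, was in 11 (15.9%, beside 4.44%), CCGGAAG, the ETS core, in 17 (24.6%, beside 11.6%), and ATGGCGG, the YY1 core, in 11 (15.9%, beside 5.25%). The SP1 box GGGCGG was in 26 (37.7%, beside 46.2%), CCAAT in 28 (40.6%, beside 38.2%), the E-box CACGTG in 7 (10.1%, beside 7.84%) and TATAAA in 7 (10.1%, beside 12.6%). The GGGCGG match can overlap the other GC-rich motifs. Of the 11 genes with an NRF1 core, 5, 7, 2 and 7 had a listed peak at the start, beside 14.8%, 37.6%, 14.2% and 38.8% of all 867 genes with that core. Ndufa11 was the gene of these listed in every library. Of the 17 with an ETS core, 6, 8, 1 and 10 were listed at the start, beside 12.8%, 39.9%, 14.4% and 39.6% of 2265 genes. Matches were thus found both with and without a listed peak.

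The other genes of the pathway were counted by the same windows. Of 44 assembly factors, 15, 29, 15 and 23 were listed (34.1%, 65.9%, 34.1% and 52.3%, beside 30.2%, 41.2%, 32.3% and 41.2% of all genes). In all 4 libraries 4 were listed (9.09%, beside 11.3%): Foxred1 and Ndufaf3, which help to build complex I, Cox10, which makes haem for cytochrome oxidase, and Cox20. In HSC alone 4 were listed, Cox16, Ndufaf2, Sco1 and Surf1 (9.09%, beside 2.09%). In LSC alone 1 was listed (2.27%, beside 2.35%), Sdhaf1, the assembly factor of the Sdhb iron-sulfur clusters. Of 19 genes for electron carriers and coenzyme Q synthesis, 7, 12, 8 and 15 were listed (36.8%, 63.2%, 42.1% and 78.9%, beside the same shares of all genes). Coq6 was listed in all 4 (5.26%, beside 11.3%), Coq2 and Pdss2 in LSC alone (10.5%, beside 2.35%), and Cycs, for cytochrome c, in replicate 2 alone. Of 10 subunits and isoforms outside the rule 3, 4, 1 and 4 were listed (30%, 40%, 10% and 40%, beside the same shares of all genes).
A further list held 15 genes for transcription factors, coactivators and mitochondrial transcription proteins that act on this pathway. Of these, 8 and 13 were listed in the HSC libraries and 9 and 12 in the LSC libraries. The shares were 53.3%, 86.7%, 60% and 80%, beside 30.2%, 41.2%, 32.3% and 41.2% of all genes. In all 4 libraries 4 were listed (26.7%, beside 11.3%): Gabpb2, Ppargc1a, Pprc1 and Yy1. In 3 of the 4 libraries 7 were listed (46.7%, beside 14.3%): Esrra, Gabpa, Mterf3, Nrf1, Polrmt, Tfb1m and Tfb2m. Tfam, for the mitochondrial DNA-packaging factor, was listed in none. These regulators have a median length of 27204 bp against 7228 bp for the members, so their windows were wider.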

How the data were processed

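The 2 HSC and 2 LSC libraries of the Ruvbl2 CUT&Tag experiment were grouped and numbered by the sample titles. Per the submitters' processing notes, FastQC 0.11.5, Bowtie2 2.2.9, MACS2 and ChIPseeker were used with the build mm10. For the last 2 tools no version, and for the calling no threshold, read filter or duplicate handling, is given in the sources used here. The authors deposited 1 peak list per library, so peaks were not called on pooled samples. The deposited fold is the ratio of the summit's pileup to the library's background, the −log10 p and its adjusted form, the −log10 q, are the authors' measures of that enrichment, and the authors' score equals 10 times the −log10 q without decimals. The lowest deposited −log10 q was 5.07. These values were used to rank peaks within a library and never to compare libraries.

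Peaks outside the autosomes, X and Y were dropped and the rest ranked by −log10 p. Gene positions came from the RefSeq table of GRCm38.p6 (coordinates of mm10), which has no strand or exons, so peaks are not placed in exons or introns. Starts and strand came from the RefSeq promoter table, matched by gene identifier for 64 of 76 members. The other 12 had no entry. Of the 76 members, 1 is counted in the totals and not reported here by name. Overlap meant at least 1 bp with the gene body or 1000 bp on each side, and the summit decided position at starts. Counts were made with Python 3.11.15, numpy 2.4.6 and pandas 2.3.3, and figures with matplotlib 3.10.9. The overlap search was tested on simulated intervals against a brute-force search, with 0 of 4000 windows wrong.

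The members and lists were chosen with earlier results of these data known. Members named with values were those listed in all 4 libraries, those listed in 1 cell type alone, and in each complex the 3 with the best worst rank. Others were chosen after their values were seen, for their role in the complex or to show a gap between libraries. Alternatives were lists of 10000, 40000 and all peaks, the gene body alone, 3 kb flanks, gene ends alone, the summit in the window, each library left out, and, added after seeing the data, summits at starts.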

Additional observations from a re-analysis of the deposited data

How the results depend on the processing

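Members listed in all 4 libraries numbered 9, and 5 with the 10000 strongest peaks, 45 with every deposited peak, 5 in the gene body alone and 3 at annotated starts. With every deposited peak this was 59.2%, beside 61.2% of all genes, and at starts 4.69%, beside 2.50%. Members listed in LSC alone numbered 7, and 3 with 10000 peaks, 3 with 40000, 1 with every peak, 2 at gene ends and 1 at starts. The share with every peak was 1.32%, beside 1.41% of all genes, and at starts 1.56%, beside 0.749%. Members listed in HSC alone numbered 2, and 1 with 10000 peaks, 1 with 40000, 0 with every peak and 4 at starts. The share with every peak was 0%, beside 1.30% of all genes, and at starts 6.25%, beside 0.732%. The windows at starts were added after the data were seen. For the other settings, and with a library left out, no share of all genes is given. Those counts do not set the members apart from other genes. Leaving out each library in turn gave 9 to 18 members listed in all remaining libraries, 7 to 15 in LSC alone and 3 to 12 in HSC alone. Without LSC replicate 1 the first 2 counts rose to 18 and 15. The HSC count was 12 when HSC replicate 1 was left out, and 11 when LSC replicate 2 was. The LSC minus HSC difference in the mean number of listed members was 0. It ranged from -13 to 13 when a library was left out, -3 at gene ends and 1.5 in the gene body alone, within the spread between replicates.

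Paired by replicate number, the LSC minus HSC difference in listed members was -2 at replicate 1 and 2 at replicate 2, with no test. Sequencing depth is unknown, so a missing peak is not an absence of occupancy. The replicate numbers moved with peak width and with chromosome Y peaks, and their part in the gap between replicates was not tested. Neighbouring genes share many of the peaks.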
